A study of Bos taurus with 68 samples.

Results

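Liver of dairy cattle (Bos taurus) on day 28 of lactation was compared with liver of the same 5 animals on day 1 after calving. The comparison covered 20 of the 68 arrays and 10 of the 34 cow-days of the study: 10 arrays on day 28 and 10 arrays on day 1, with 1 value per cow and day. The cows, numbered 6934, 6983, 7079, 7186 and 7188, are given in that order wherever 5 values follow each other. All livers were sampled without a treatment named in the labels, and the labels give no breed, parity, diet or age, so day after calving was the difference between the groups that the labels name. Total RNA of each liver was hybridised to 2-colour cDNA arrays beside a reference standard RNA, and each sample was run a second time with the dyes swapped. The study also sampled days -65, -30, -14, 14 and 49 relative to calving.

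After calving the liver of a dairy cow takes up fatty acids released from adipose tissue and makes most of the glucose that the udder turns into lactose, while feed intake lags behind milk output. In the first days the liver also carries an acute phase response, lower growth hormone signalling to the IGF axis, and a large load of fatty acids for oxidation, ketogenesis and storage as triglyceride. By about the end of the first month, intake and hepatic blood flow are higher and the export of cholesterol in lipoproteins increases. Day 1 and day 28 therefore bracket the adaptation to early lactation.

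Values are log2 ratios of liver over the reference standard, so 1 unit is a 2-fold ratio and a value of 0 is the median spot of an array. This direction is only likely, because the labels name the dyes and not the numerator of the deposited ratio; with the ratio the other way, every sign below turns, also that of the differences between days. All 9 tested genes of the hepatocyte-enriched list lay above the reference on day 28, and 9 of 9 did on day 1, with median levels of 4.06 and 3.41. In a piece of liver, fewer cells of a type and less RNA per cell cannot be told apart.

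Between 15192 and 16216 of the 16416 rows were measured on each of the 20 arrays. Each listed clone was spotted 2 times, and its spots correlated at 0.364 to 0.871 within an array. Before the sign was turned, arrays of an exchanged pair correlated below 0 in 5 of 5 cow-days on day 28 and in 4 of 5 on day 1, the exception being cow 7079 with 0.068. On day 28 the pair of cow 6934 stood at -0.0026. Across probes, the difference between the days that a cow showed on its arrays with liver in Cy5 correlated at only -0.196 to 0.280 with that on its arrays with liver in Cy3, and between cows at -0.118 to 0.212 over 10 pairs of cows; probes are not independent replicates and these are descriptions. The precision of every value is limited by the number of arrays.

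No probe passed an adjusted p of 0.05 in limma's moderated test over 5493 probes, which is 0% of them. The smallest adjusted p was 0.106. At an unadjusted p under 0.05 there were 427 probes, against 275 that the threshold alone would give. Of these, 275 (5.01%) were higher and 152 (2.77%) were lower on day 28; with quantile normalization of the arrays the split was 201 higher to 191 lower. Of 5258 probes measured in every cow on both days, 319 (6.07%) were higher on day 28 in all 5 cows and 162 (3.08%) were lower in all 5. The median estimate over all probes was 0.06 and 61.1% of them lay above 0, so counts of genes above 0 below are to be read against that share. The median 95% interval reached 0.498 to either side of its estimate, and 25 probes had an estimate of at least 1 log2 unit higher and 25 of at least 1 unit lower. With 5 pairs, an exact test on any single gene could not go below 0.0625.

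The 12 genes with the smallest p-values in each direction, among those that differed 1 way in all 5 cows, were picked for their difference, so their values are a description. Values did not overlap between the days for 8 of the 12 genes higher on day 28 and for 4 of the 12 lower ones; over all probes measured in every cow this held for 22 (0.418%) and 21 (0.399%). All 24 estimates had the same sign on arrays with liver in Cy5 and on arrays with liver in Cy3, which the choice of genes partly fixes, since both orientations entered it. For 7 of the 24 genes the estimates of the orientations differed by more than 2 times.

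**Figure D1:**
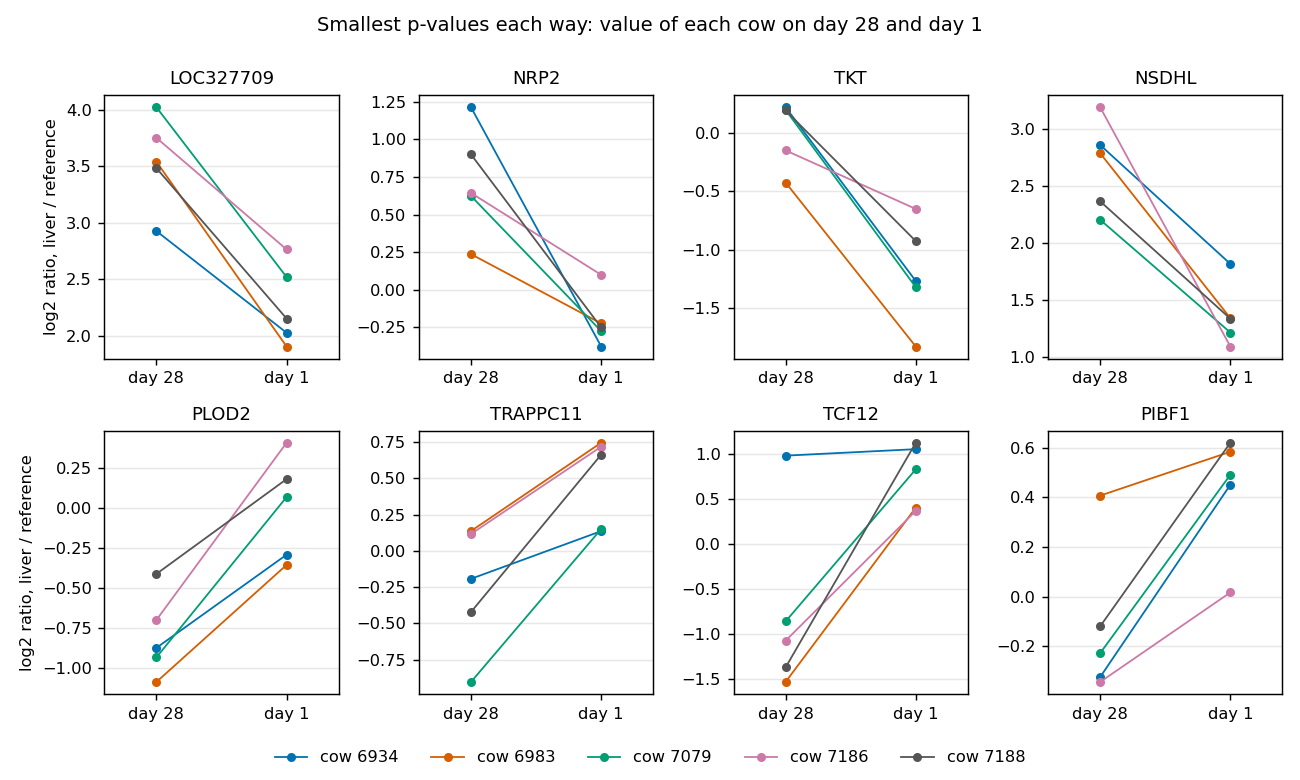
Log2 ratio of liver over reference (y axis) in each cow on day 28 (left) and day 1 (right) for the 4 genes with the smallest p-values higher on day 28 (upper row) and the 4 lower on day 28 (lower row); lines join the values of a cow. The 5 lines of LOC327709 run between 2.93 and 4.03 on day 28 and between 1.90 and 2.76 on day 1, and for TCF12 cow 6934 alone stays level.

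LOC327709, a mu class glutathione S-transferase whose family joins glutathione to electrophiles for excretion, had the smallest p-value of the whole table. Its log2 ratio was 2.93, 3.54, 4.03, 3.75 and 3.48 on day 28, against 2.02, 1.90, 2.52, 2.76 and 2.15 on day 1. The lowest day 28 value lay above the highest day 1 value. The estimate of 1.27 ± 0.26 (SE, 5 cows), a 2.42-fold higher ratio, had an adjusted p of 0.106. It lay between 0.995 and 2.24 over 20 alternatives of the processing. These include the scaling of arrays to 1 median absolute deviation, whose estimates are not in log2 units, so the range is not purely a log2 range. LOC327709 was known from earlier results of these data.

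TKT, the transketolase of the pentose phosphate pathway, had log2 ratios of 0.22, -0.43, 0.20, -0.15 and 0.19 on day 28, against -1.27, -1.83, -1.32, -0.65 and -0.93 on day 1. All day 28 values lay above all day 1 values, and cow 7186 had the smallest step. The estimate was 1.20 ± 0.25 (SE), or 2.30-fold, with an adjusted p of 0.113. NSDHL, which removes a methyl group from sterol intermediates in cholesterol synthesis, had 2.86, 2.78, 2.20, 3.19 and 2.36 on day 28, against 1.81, 1.34, 1.21, 1.09 and 1.33 on day 1. Here too the days did not overlap, and the largest step was that of cow 7186. The estimate was 1.32 ± 0.30 (SE), or 2.50-fold, at an adjusted p of 0.192.

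NAXE, HSD17B8, ABHD14B and ARSL are enzymes as well. NAXE, which helps to repair damaged NADH and NADPH, averaged 0.74 ± 0.25 on day 28 and -0.07 ± 0.43 on day 1 (SD, n = 5 cows), an estimate of 0.80 ± 0.19 (SE). HSD17B8, a dehydrogenase of steroids that also takes part in mitochondrial fatty acid synthesis, averaged 1.59 ± 0.42 on day 28 and 0.79 ± 0.19 on day 1. The step of HSD17B8 was small in cow 7188, at 0.08, and another probe of the gene had an estimate of -0.07. ABHD14B, an alpha/beta hydrolase family member, averaged 1.35 ± 0.39 on day 28 and 0.08 ± 0.55 on day 1, without overlap. ARSL, a sulfatase, had an estimate of 0.73 ± 0.20 (SE) with overlapping days.

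IGFBP3, the main carrier of insulin-like growth factors in blood, was measured by 3 probes. The probe picked by its p-value had 3.15, 2.83, 2.62, 3.13 and 2.10 on day 28, against 1.28, 1.39, 1.86, 1.80 and 1.37 on day 1. On that probe the days did not overlap, the estimate was 1.22 ± 0.31 (SE) and the adjusted p was 0.304. The other probes of IGFBP3 had estimates of 0.27 and -0.28, so the gene's probes disagreed. NRP2, a co-receptor for semaphorins and vascular endothelial growth factors, had 1.21, 0.24, 0.62, 0.64 and 0.90 on day 28, against -0.38, -0.22, -0.27, 0.10 and -0.25 on day 1. Its estimate was 0.93 ± 0.19 (SE) at an adjusted p of 0.106, and another probe had 0.32.

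CD3D, CTF1 and CTNS complete the genes higher on day 28. CD3D, a chain of the T cell receptor complex, had 1.30, 1.56, 2.12, 0.91 and 1.59 on day 28, against 0.76, -0.01, 0.82, -0.21 and 0.84 on day 1. The days did not overlap, and the estimate was 1.05 ± 0.27 (SE). CTF1, a cytokine of the interleukin-6 family, had an estimate of 0.65 ± 0.17 (SE), and CTNS, the lysosomal cystine transporter, one of 0.78 ± 0.21 (SE). A second probe of CTF1 had -0.33 and a second probe of CTNS had -0.13, on the other side of 0 in both cases.

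PLOD2, a lysyl hydroxylase that modifies collagen before it is cross-linked, had the smallest p-value among genes lower on day 28. Its log2 ratio was -0.87, -1.08, -0.93, -0.70 and -0.41 on day 28, against -0.29, -0.35, 0.07, 0.41 and 0.18 on day 1. The highest day 28 value, in cow 7188, lay just under the lowest day 1 value. The estimate was -0.80 ± 0.16 (SE), or 1.75-fold lower, at an adjusted p of 0.106. The estimate of PLOD2 was -0.46 with liver in Cy5 and -1.15 with liver in Cy3.

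TCF12, a helix-loop-helix transcription factor, had the lowest estimate of this side. Its values were 0.98, -1.54, -0.86, -1.08 and -1.37 on day 28, against 1.05, 0.40, 0.83, 0.37 and 1.13 on day 1. Cow 6934 differed by only -0.07 between the days, and the other cows by -1.45 to -2.50. The estimate was -1.53 ± 0.37 (SE) at an adjusted p of 0.264; without cow 6934 it was -1.90 at an adjusted p of 0.0230, which makes TCF12 the only probe past the threshold in that setting. With liver in Cy5 it was -2.30 and with liver in Cy3 -0.76. Another probe of TCF12 had an estimate of 0.06.

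HIPK1, a nuclear protein kinase, had -0.70, -0.06, -0.47, -0.53 and -0.42 on day 28, against 0.57, 0.51, 0.51, 0.44 and 0.80 on day 1. All day 28 values lay below 0, the median spot, and all day 1 values above it. The estimate was -1.0 ± 0.29 (SE) at an adjusted p of 0.350, and another probe had -0.15. CD9, a tetraspanin of the cell surface, had -1.07, -1.30, -0.81, -1.13 and -0.73 on day 28, against -0.45, -0.31, -0.57, -0.34 and -0.43 on day 1. These days did not overlap either, but the other probes of CD9 had estimates of -0.08 and 0.90. XPNPEP3, a mitochondrial aminopeptidase, averaged -0.36 ± 0.42 on day 28 and 0.57 ± 0.22 on day 1 (SD, n = 5 cows). The estimate of XPNPEP3 was -0.32 with liver in Cy5 and -1.54 with liver in Cy3, the widest ratio between the orientations among the 24 genes.

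TRAPPC11, EPS15L1 and GPR107 have roles in membrane traffic. TRAPPC11, a subunit of a complex that tethers transport vesicles, had -0.19, 0.14, -0.90, 0.12 and -0.42 on day 28, against 0.14, 0.75, 0.15, 0.72 and 0.66 on day 1, an estimate of -0.74 ± 0.17 (SE). The ranges of TRAPPC11 touched, since cow 6983 on day 28 stood at the level of cow 6934 on day 1. EPS15L1, an adaptor of clathrin-mediated endocytosis, had an estimate of -0.93 ± 0.26 (SE), and its second probe had 0.22. GPR107, a membrane protein of the Golgi, had an estimate of -1.11 ± 0.32 (SE), with steps of -0.17 in cow 6934 and -2.25 in cow 6983.

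PRP-VII, a prolactin-related protein known from the bovine placenta, averaged -0.54 ± 0.66 on day 28 and 0.55 ± 0.48 on day 1 (SD, n = 5 cows). Its steps lay between -2.52 in cow 6983 and -0.03 in cow 7186, with an estimate of -1.10 ± 0.29 (SE). On arrays with liver in Cy3 alone PRP-VII had an estimate of -1.56 and an adjusted p of 0.00705, the only probe past the threshold there, and on arrays with liver in Cy5 alone -0.64. PIBF1 had an estimate of -0.55 ± 0.14 (SE). STEAP4, a metalloreductase of iron and copper handling, had an estimate of -0.61 ± 0.18 (SE). CD209, a C-type lectin of dendritic cells and macrophages, had one of -0.68 ± 0.21 (SE), and its second probe had -0.04. In all, 10 of the 24 genes had other probes tested, and for 3 of the 10 every other probe had the same sign as the picked one.

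The values of the 24 genes on the other sampling days place the difference in the course from day -65 to day 49. For 10 of the 12 genes higher on day 28, day 1 had the lowest mean of the 7 days, and for 8 of the 12 day 28 had the highest. For 10 of the 12 genes lower on day 28, that day had the lowest mean of the 7, and for 5 of the 12 day 1 had the highest. These orders partly follow from how the genes were picked. LOC327709 averaged 3.75 ± 0.35 on day -65, 4.05 ± 0.76 on day -30, 3.37 ± 0.64 on day -14, 2.27 ± 0.36 on day 1, 2.81 ± 0.47 on day 14, 3.55 ± 0.41 on day 28 and 2.70 ± 0.56 on day 49 (SD; n = 5, 5, 3, 5, 3, 5 and 4 cows). The day 28 level of LOC327709 was thus close to its level on day -65, and day 49 lay between those of days 1 and 28. IGFBP3 on its picked probe ran likewise, with 3.07 ± 0.97 on day -30, 1.54 ± 0.27 on day 1, 2.76 ± 0.43 on day 28 and 2.24 ± 0.53 on day 49. PLOD2 was the mirror of these: it averaged -0.58 ± 0.23 on day -30, 0.00 ± 0.32 on day 1, -0.80 ± 0.26 on day 28 and -0.20 ± 0.06 on day 49. HIPK1 and CD9 differed from PLOD2 in that day 1 lay near the neighbouring days and day 28 stood apart, with CD9 at -0.42 ± 0.10 on day 1, -0.28 ± 0.37 on day 14, -1.01 ± 0.24 on day 28 and -0.40 ± 0.38 on day 49.

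**Figure D2:**
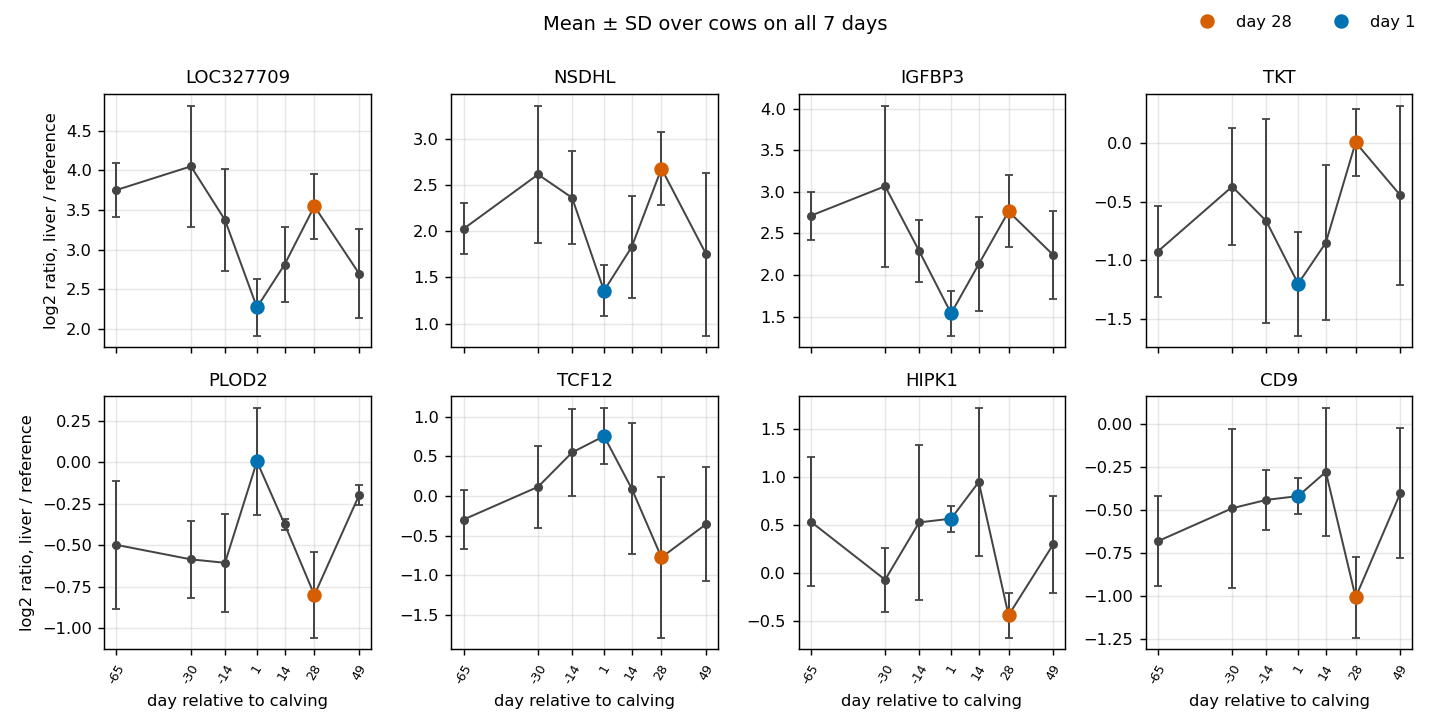
Mean log2 ratio of liver over reference with SD over cows (y axis) on the 7 sampling days relative to calving (x axis) for 4 genes higher on day 28 (upper row) and 4 lower (lower row), with day 28 in orange and day 1 in blue; 5 cows were averaged, except for 3 cows on each of days -14 and 14 and 4 on day 49. LOC327709, NSDHL, IGFBP3 and TKT have their lowest mean on day 1, whereas HIPK1 and CD9 have their lowest on day 28.

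Genes were also grouped in 30 lists by pathway, organelle or cell type, which held 643 tested genes in all. No gene of any list passed the adjusted threshold. A list is described by how many of its tested genes had an estimate above 0 and by its median, beside 61.1% and 0.06 over all probes. Among the 30 list medians, 21 lay above that of all probes and 26 lay above 0. The median of all probes was itself -0.001 after quantile normalization, -0.008 with liver in Cy5 and 0.17 with liver in Cy3. List medians given for these settings are to be read against those values. Of the 67 list genes named, 18 had estimates of opposite sign with liver in Cy5 and with liver in Cy3: EBP, OAT, GPX1, RPS9, ACADVL, ETFB, PC, PDK4, PGK1, PLIN2, FABP3, C1QB, CD163, CD3E, COL1A2, BLVRB, CXCL9 and FOS.

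**Figure D3:**
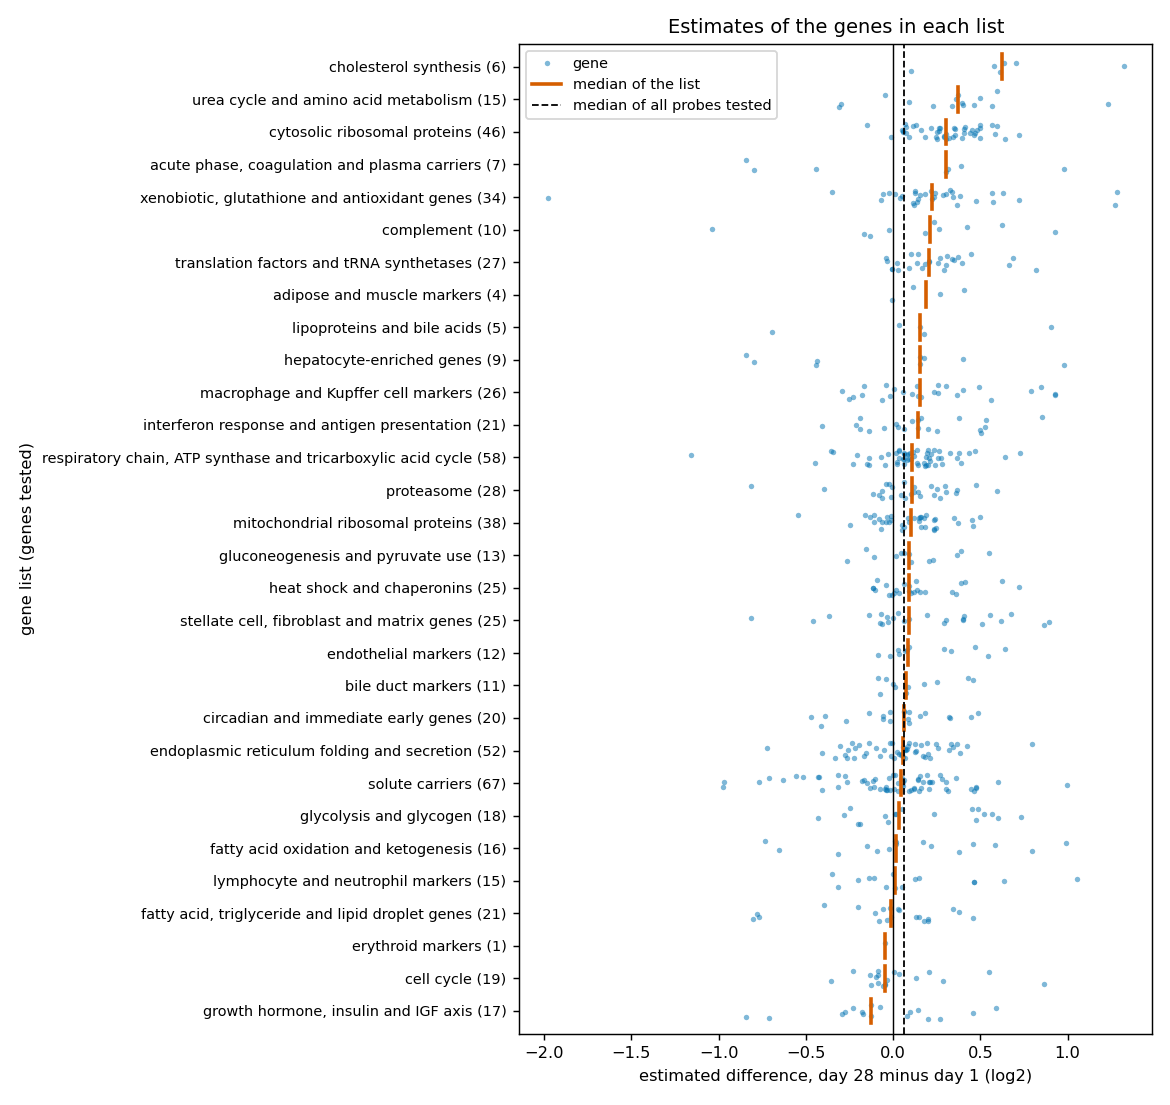
Estimated difference, day 28 minus day 1, in log2 units (x axis) for every tested gene (points) of the 30 lists (y axis, number of genes in brackets), ordered by the median of the list (orange bar); the dashed line is the median of all 5493 probes. The 6 cholesterol synthesis genes have the highest median, 0.62, and the growth hormone, insulin and IGF axis the lowest, -0.13.

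Cholesterol synthesis had the highest median of the 30 lists, 0.62, with estimates above 0 for 6 of 6 tested genes. For 4 of the 6 the unadjusted p in limma's moderated test was under 0.05, all higher on day 28, against 5.01% of all probes. NSDHL, among these 4, had already been picked by its p-value. The lists were chosen with earlier results of these data known, so the count is a description. Averaged over the list, the difference was 0.27, 1.5, 0.11, 0.43 and 0.98 in the 5 cows, so it was above 0 in every cow but spread widely, with cow 6983 the highest. Without cow 6983 the median of the list was 0.34. The median was 0.66 on arrays with liver in Cy5 and 0.61 on arrays with liver in Cy3.

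Of its members, NSDHL is given above. ACAT2, which condenses acetyl-CoA at the entry of the pathway, had 0.58, 0.10, 0.44, 0.95 and 0.25 on day 28, against -0.03, -0.61, -0.09, 0.51 and -0.98 on day 1. It was higher on day 28 in every cow, although the days overlapped, with an estimate of 0.71 ± 0.24 (SE) and an adjusted p of 0.529. FDPS, the farnesyl diphosphate synthase, had 1.63, 0.91, 0.79, 0.22 and 1.81 on day 28, against 1.03, -0.63, 0.70, 0.75 and 0.61 on day 1. Cow 7186 went the other way, and the estimate was 0.58 ± 0.28 (SE). LSS, which closes the sterol ring, had 1.92, 2.07, 1.37, 1.30 and 1.42 on day 28, against 1.71, 0.23, 1.16, 1.16 and 0.64 on day 1. It was higher in all 5 cows by 0.14 to 1.84, with the largest step in cow 6983 and an estimate of 0.64 ± 0.30 (SE). MSMO1, a sterol oxidase, had 2.70, 3.32, 0.76, 2.61 and 1.58 on day 28, against 2.83, 1.46, 1.77, 2.03 and -0.16 on day 1. It was lower on day 28 in cows 6934 and 7079, and its estimate of 0.61 ± 0.56 (SE) was under 2 times its error. EBP, a sterol isomerase, was higher on day 28 in cow 6983 alone, at 3.35 against 1.72, and had an estimate of 0.10 ± 0.53 (SE).

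**Figure D4:**
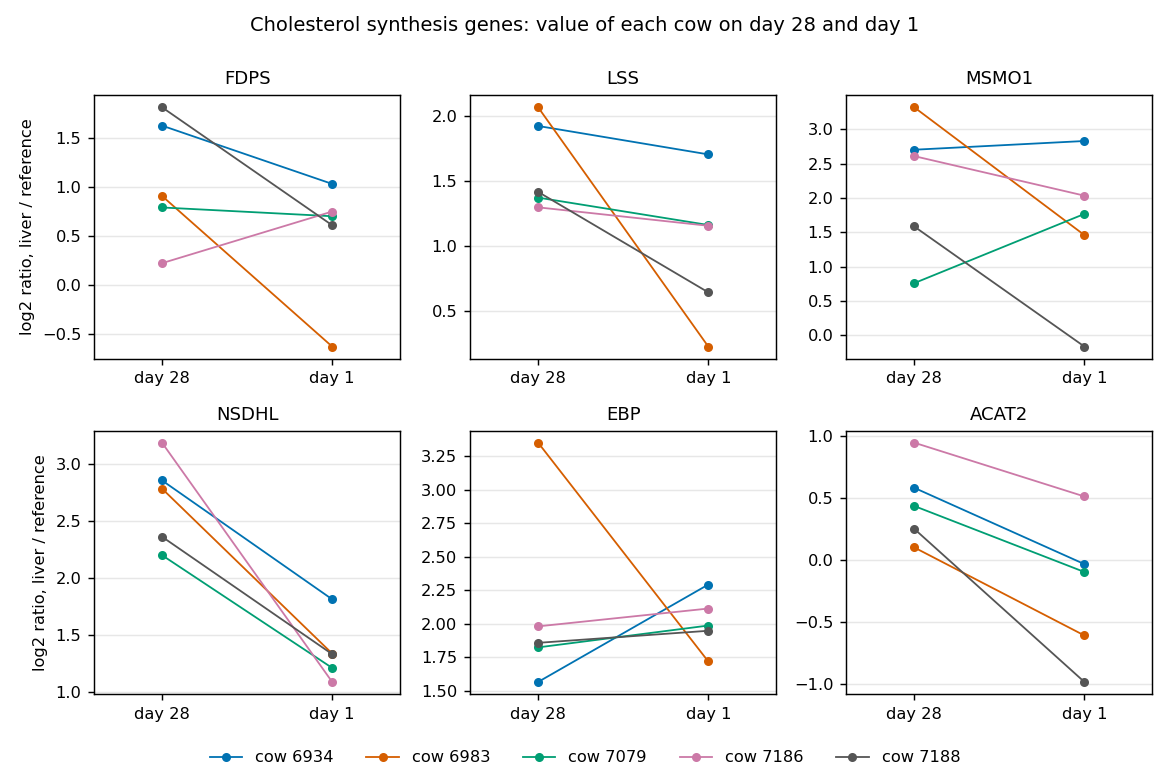
Log2 ratio of liver over reference (y axis) in each cow on day 28 (left) and day 1 (right) for the 6 tested cholesterol synthesis genes; lines join the values of a cow. The lines of NSDHL, ACAT2 and LSS run the same way in all 5 cows, and EBP is higher on day 28 in cow 6983 only.

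Genes of the urea cycle and amino acid metabolism had a median of 0.37, and 12 of 15 had an estimate above 0. The mean over the list was higher on day 28 by 0.42, 0.43, 0.39, 0.04 and 0.35 in the 5 cows. The median was 0.07 on arrays with liver in Cy5 and 0.34 on arrays with liver in Cy3. GAMT, which makes creatine, had 4.12, 3.53, 4.04, 3.76 and 3.36 on day 28, against 2.76, 2.01, 2.86, 2.50 and 2.51 on day 1. Its days did not overlap and all 5 cows differed by 0.85 to 1.52; the estimate was 1.23 ± 0.44 (SE) at an adjusted p of 0.540, GAMT being the highest of its list. IVD, a dehydrogenase of leucine breakdown, had an estimate of 0.59 ± 0.24 (SE), and GLUL, the glutamine synthetase, 0.57 ± 0.31 (SE). Within the urea cycle itself, ASS1 had 0.40 ± 0.23 (SE) and the next enzyme, ASL, -0.30 ± 0.23 (SE), so they lay on opposite sides of 0 and each estimate was under 2 times its error. OAT, the ornithine aminotransferase, was the lowest of the list. It averaged -0.68 ± 0.24 on day 28 and -0.38 ± 0.06 on day 1 (SD, n = 5 cows), and its estimate was -0.82 with liver in Cy5 but 0.20 with liver in Cy3.

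Of the xenobiotic, glutathione and antioxidant genes, 29 of 34 had an estimate above 0, with a median of 0.22. The mean over the list was 0.23, 0.38, 0.23, 0.01 and 0.26 higher on day 28 in the 5 cows, and cow 7186 was again the lowest. AOX1, an aldehyde oxidase of drug and nicotinamide metabolism, had 4.95, 4.57, 3.98, 4.34 and 3.32 on day 28, against 3.09, 3.30, 3.71, 3.40 and 1.23 on day 1. It was higher in every cow, with an estimate of 1.28 ± 0.48 (SE) and an adjusted p of 0.556. GPX3, the secreted glutathione peroxidase, went the other way and had the lowest estimate of the 30 lists. It had 1.80, 2.40, 4.43, -0.85 and 0.60 on day 28, against 3.09, 3.54, 4.28, 3.80 and 3.55 on day 1. Day 1 values of GPX3 were close together and day 28 values spread over more than 5 log2 units, with an estimate of -1.98 ± 0.62 (SE) at an adjusted p of 0.423; without cow 7186 it was -1.31. Catalase (CAT) had 0.15 ± 0.45 (SE), SOD1 0.37 ± 0.35 (SE) and GPX1 0.18 ± 0.15 (SE), each with an interval that includes 0.

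Cytosolic ribosomal proteins had estimates above 0 for 44 of 46 genes with a median of 0.30, but this depended on the dye orientation. On arrays with liver in Cy3 the median was 0.70 with 46 of 46 genes above 0, and on arrays with liver in Cy5 it was -0.10 with 15 of 46 above 0. By cow the mean over the list differed by 0.13, 0.26, 0.73, -0.16 and 0.57. RPLP1, a protein of the ribosomal stalk, had 0.14, 0.05, 1.04, 0.18 and -0.24 on day 28, against -0.41, -0.40, -0.27, -0.26 and -0.42 on day 1, without overlap. Its estimate was 0.59 ± 0.18 (SE), 0.14 with liver in Cy5 and 1.04 with liver in Cy3. RPL27 had the highest estimate of the list, 0.72 ± 0.20 (SE), and RPS9 the lowest, -0.15 ± 0.13 (SE).

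Translation factors and tRNA synthetases had estimates above 0 for 23 of 27 genes and a median of 0.21, which was 0.02 with liver in Cy5 and 0.36 with liver in Cy3. EEF2, the elongation factor that moves the ribosome along, had 0.08, 0.06, 0.36, 0.26 and 0.07 on day 28, against -0.11, -0.02, -0.28, -0.32 and 0.02 on day 1. Its days did not overlap though the gap was narrow, and the estimate was 0.31 ± 0.13 (SE), with 0.47 and 0.54 for the other probes.

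**Figure D5:**
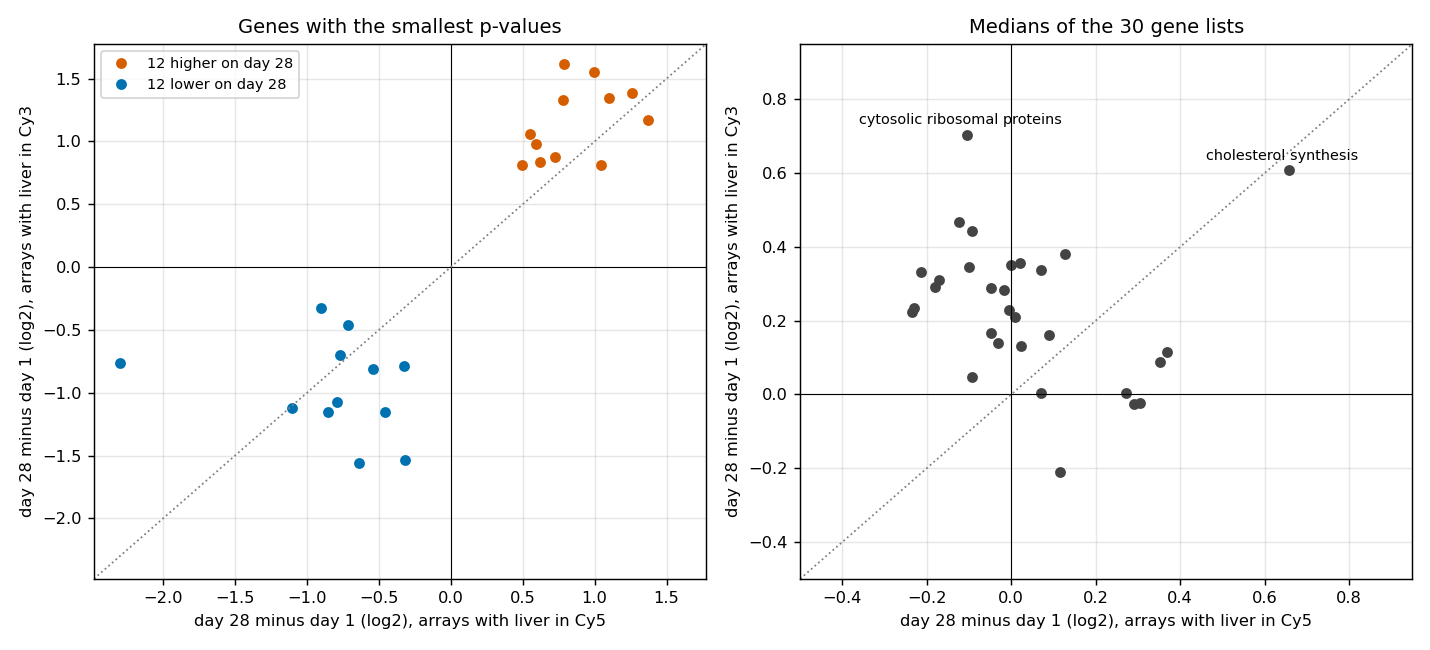
Difference between day 28 and day 1 in log2 units from arrays with liver in Cy5 (x axis) and from arrays with liver in Cy3 (y axis), for the 24 genes picked by p-value (left) and for the medians of the 30 lists (right); the dotted line marks equal values. Both groups of 12 genes lie on 1 side of 0 on both axes, cholesterol synthesis lies near the dotted line, and cytosolic ribosomal proteins are at -0.10 with liver in Cy5 and 0.70 with liver in Cy3.

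Lists of fuel use had medians close to that of all probes. Fatty acid oxidation and ketogenesis had 10 of 16 genes above 0 and a median of 0.02, which was -0.21 after quantile normalization. CPT1A, which joins long-chain fatty acids to carnitine for entry into the mitochondrion, had 2.80, 1.93, 1.97, 2.36 and 0.90 on day 28, against 1.32, 0.90, 1.07, 1.28 and 0.42 on day 1. All 5 cows were higher on day 28 and the estimate was 0.99 ± 0.30 (SE) at an adjusted p of 0.398, but another CPT1A probe had -0.47. ACSL1, which activates long-chain fatty acids, had 1.74, 3.22, 1.85, 1.69 and 0.86 on day 28, against 3.22, 3.42, 2.12, 2.68 and 1.57 on day 1. It was lower in all 5 cows, with an estimate of -0.73 ± 0.51 (SE) that was -0.17 with liver in Cy5 and -1.30 with liver in Cy3. CPT2, measured on both days in 4 cows, had -0.65 ± 0.32 (SE) in the fit over all days. ACADVL at 0.02 ± 0.23 (SE) and ETFB at 0.02 ± 0.20 (SE) had estimates smaller than their errors.

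Gluconeogenesis and pyruvate use had 10 of 13 genes above 0 with a median of 0.09, which was -0.03 after quantile normalization. PC, the pyruvate carboxylase, had 0.32, -0.13, 0.61, 0.17 and -0.82 on day 28, against 0.20, 0.09, 0.27, 0.69 and -0.34 on day 1, an estimate of -0.16 ± 0.22 (SE). PDK4, a kinase that holds back pyruvate oxidation, had 0.23 ± 0.40 (SE). GOT2, the mitochondrial aspartate aminotransferase, was the highest of the list at 0.55 ± 0.17 (SE), higher in 5 of 5 cows, and its second probe had 0.81. Glycolysis and glycogen had 11 of 18 above 0 with a median of 0.03, which was -0.02 after quantile normalization; ENO1, an enolase, had 0.60 ± 0.29 (SE), GAPDH 0.57 ± 0.28 (SE), PGK1 -0.19 ± 0.16 (SE) and PYGL, the liver glycogen phosphorylase, 0.49 ± 0.29 (SE).

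Fatty acid, triglyceride and lipid droplet genes had 10 of 21 above 0 and a median of -0.01, which was 0.23 with liver in Cy3 and -0.23 with liver in Cy5. PLIN2, a coat protein of lipid droplets, had -0.01 ± 0.27 (SE). The highest of the list was FABP3 at 0.46 ± 0.35 (SE), which was -0.20 with liver in Cy5 and 1.11 with liver in Cy3, and the lowest PNPLA2, a triglyceride lipase, at -0.80 ± 0.36 (SE). Among lipoprotein and bile acid genes, 4 of 5 lay above 0 with a median of 0.15, which was -0.04 without cow 6983. ABCC2, which exports conjugates into bile, had 3.77, 3.39, 2.76, 3.28 and 2.04 on day 28, against 2.34, 2.21, 2.26, 2.53 and 1.39 on day 1. Every cow was higher, by 0.51 to 1.43, and the estimate was 0.91 ± 0.41 (SE). APOA1 had 0.18 ± 0.20 (SE) and the bile acid importer SLC10A1 0.15 ± 0.49 (SE).

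The growth hormone, insulin and IGF axis had the lowest median of the lists, -0.13, with 7 of 17 genes above 0. With liver in Cy3 the median was 0.05, against 0.17 over all probes in that orientation. The mean over the list differed by 0.02, 0.06, 0.04, 0.01 and -0.36, above 0 in 4 of 5 cows, and cow 7188 alone was lower on day 28. Its extremes were CEBPA, a transcription factor of hepatocytes, at 0.59 ± 0.28 (SE) with -0.61 for another probe, and IGFBP5 at -0.84 ± 0.43 (SE). IGFBP5 was measured on both days in 4 cows. All 3 probes of IGFBP3 were measured in all 30 cow-days, and the list held the one with the first identifier, at 0.27, not the picked one.

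Acute phase, coagulation and plasma carrier genes held members on both sides: 4 of 7 were above 0, and the median of 0.30 was -0.05 after quantile normalization and -0.03 with liver in Cy3. By cow the mean over the list differed by -0.17, 0.42, -0.11, 0.02 and -0.23, so it was higher on day 28 in 2 of 5 cows. TF, transferrin, had 4.34, 4.00, 4.22, 4.33 and 3.44 on day 28, against 3.28, 3.17, 3.39, 4.16 and 1.43 on day 1. It was higher in every cow, most so in cow 7188, with an estimate of 0.98 ± 0.34 (SE) at an adjusted p of 0.532. SERPINA3-3, an acute phase protein that inhibits serine proteases, had 6.0, 6.62, 5.89, 5.20 and 4.60 on day 28, against 6.49, 6.93, 6.10, 6.26 and 6.73 on day 1. It was lower in every cow, by 0.21 to 2.13 in size, with an estimate of -0.84 ± 0.46 (SE). When arrays were scaled to 1 median absolute deviation, the estimate of SERPINA3-3 was 0.05, in units of that deviation and not log2. Ceruloplasmin (CP) had -0.44 ± 0.64 (SE), and 0.46 under the same scaling and in the same units of deviation.

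Complement genes had 6 of 10 above 0 with a median of 0.21. The mean over the complement list differed by -0.05, 0.62, 0.39, -0.23 and -0.08 in the 5 cows, so it was higher on day 28 in 2 of 5. C1R, a protease of the first component, had 3.34, 5.05, 3.64, 3.26 and 2.92 on day 28, against 5.30, 5.13, 4.15, 4.62 and 4.18 on day 1, an estimate of -1.03 ± 0.55 (SE). That estimate was -0.37 with liver in Cy5 and -1.70 with liver in Cy3. C1S, the protease that C1R activates, averaged 2.73 ± 0.58 on day 28 and 2.11 ± 0.67 on day 1 (SD, n = 5 cows). It was higher on day 28 in 4 of 5 cows, with an estimate of 0.62 ± 0.40 (SE) that was 1.11 with liver in Cy5 and 0.14 with liver in Cy3. C1QC, a chain of C1q that macrophages make, had 3.87, 2.71, 3.19, 2.89 and 2.75 on day 28, against 2.47, 1.30, 2.41, 2.67 and 1.93 on day 1. C1R was thus lower in 5 of 5 cows and C1QC, at 0.93 ± 0.41 (SE), higher in 5 of 5. C1QA had 0.23 ± 0.44 (SE) and C1QB -0.17 ± 0.47 (SE).

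Markers of other cells of the liver were examined in the same way. Macrophage and Kupffer cell markers had 18 of 26 above 0 and a median of 0.15. LGMN, a lysosomal protease, had 2.69, 2.42, 2.28, 2.58 and 1.70 on day 28, against 1.63, 0.98, 1.67, 2.23 and 1.22 on day 1, an estimate of 0.79 ± 0.27 (SE). CD68 had 0.56 ± 0.24 (SE), higher in 5 of 5 cows but by 0.02 in cow 7188, and LAPTM5 was the highest at 0.93 ± 0.39 (SE). The scavenger receptor CD163 had 0.06 ± 0.22 (SE) and VSIG4 0.37 ± 0.29 (SE). The mean over the macrophage list differed between the days by 0.31, 0.57, 0.10, 0.14 and -0.01 in the 5 cows; its part in the values of C1QC was not tested.

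Lymphocyte and neutrophil markers had 8 of 15 above 0 and a median of 0.01, which was -0.08 after quantile normalization, and CD3D was their highest. Another chain of the same receptor complex, CD3E, had 0.15 ± 0.37 (SE). Endothelial markers had 10 of 12 above 0 with a median of 0.09, which was -0.12 with liver in Cy5, and bile duct markers 8 of 11 with 0.08, which was -0.21 with liver in Cy5. Stellate cell, fibroblast and matrix genes had 15 of 25 above 0 and a median of 0.09, which was -0.09 with liver in Cy5. COL3A1, a fibrillar collagen, had -2.40, -3.22, -2.64, -2.78 and -2.44 on day 28, against -4.06, -3.32, -3.64, -2.80 and -4.13 on day 1. It lay far below the reference on both days, and its estimate of 0.90 ± 0.36 (SE) was 0.33 with liver in Cy5 and 1.46 with liver in Cy3. SPARC had 0.87 ± 0.37 (SE), and COL1A2 -0.03 ± 0.46 (SE). Adipose and muscle markers had 3 of 4 above 0, with a median of 0.19 that was -0.18 with liver in Cy5, and the erythroid list was BLVRB alone, at -0.05 ± 0.31 (SE). Hepatocyte-enriched genes had 5 of 9 above 0 with a median of 0.15 that was -0.12 after quantile normalization. The mean over that list differed by -0.32, 0.50, -0.14, -0.27 and -0.12 in the 5 cows, so cow 6983 alone was higher on day 28.

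The remaining lists lay close to the median of all probes. Interferon response and antigen presentation had 15 of 21 above 0 and a median of 0.14, with BOLA-DRB3 of the class II complex at 0.53 ± 0.31 (SE) and CXCL9, an interferon-induced chemokine, at -0.21 ± 0.43 (SE). Respiratory chain, ATP synthase and tricarboxylic acid cycle genes had 46 of 58 above 0 and a median of 0.11, which was -0.10 with liver in Cy5. Mitochondrial ribosomal proteins had 24 of 38 with 0.11, the proteasome 18 of 28 with 0.11 and heat shock and chaperonin genes 18 of 25 with 0.09. The signs of these medians turned in at least 1 alternative, with liver in Cy5 alone at -0.01, -0.02 and -0.05. HSPB8, a small heat shock protein, was the highest of its list at 0.72 ± 0.24 (SE).

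Endoplasmic reticulum folding and secretion genes had 32 of 52 above 0 and a median of 0.06, which was -0.04 after quantile normalization, and LMAN2, a lectin of the secretory pathway, led them at 0.79 ± 0.24 (SE) with all 5 cows higher. Circadian and immediate early genes had 11 of 20 above 0 with a median of 0.06, which was -0.01 after quantile normalization. FOS had -0.47 ± 0.29 (SE) and TXNIP 0.48 ± 0.31 (SE), while another probe of TXNIP had 0.85 ± 0.28 (SE). Cell cycle genes had 7 of 19 above 0 and a median of -0.05, which was 0.22 with liver in Cy3, against 0.17 over all probes. Solute carriers had 39 of 67 above 0 and a median of 0.04, which was -0.05 after quantile normalization. SLCO2B1, an importer of organic anions, was the highest of them, with 3.26, 2.51, 2.69, 2.78 and 2.41 on day 28, against 1.73, 1.49, 1.51, 2.28 and 1.66 on day 1. Its days did not overlap, with an estimate of 0.99 ± 0.38 (SE) that was 1.54 with liver in Cy5 and 0.45 with liver in Cy3. SLC41A3, a magnesium transporter, was the lowest at -0.98 ± 0.44 (SE), on a probe measured on both days in 4 cows. Its other probe, measured on both days in 5 cows, had -1.01. The list held the probe measured in 29 cow-days of all 7 days, against 28 for the other.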

How the data were processed

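The authors deposited a log2 ratio of the dye channels for each spot; per the labels, images came from a Scanarray 4000 and GenePix 4.0. How the authors subtracted background and normalized is not given in the sources used here. Arrays were centred on their medians, ratios were turned where liver carried Cy3, and spots of a clone (a probe) and the exchanged pair were averaged into 1 value per cow and day. Of 5693 clones, 5598 named 1 gene, and symbols were updated by gene identifier for 5591. The 5030 rows with no clone were left out, and were tested together with the clones only in an alternative. A probe was tested with values on both days in at least 4 cows.

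The fit used limma 3.58.1 in R 4.3.3 with fixed terms for day and cow over 30 cow-days of all 7 days (19 residual degrees of freedom), Benjamini-Hochberg adjusted over 5493 probes, 2-sided; the fit was tested on simulated data. The spread behind the p-values is what remains after day and cow, pooled over all days. Where a cow lacked day 1 or day 28, the estimate also drew on its other days and is not the mean of paired differences. Cow number marks the same animal, so the cow is the block. Different probes of a gene were kept apart, and a list used the one measured in most cow-days of all 7 days or, in a tie, the first by identifier. Members and lists were chosen with earlier results of these data known. Named were, among probes of 1 gene measured and moving 1 way in all 5 cows, the 12 with the smallest p-values each way, then LOC327709 and genes from each list's core, highest and lowest, not all of which are given; ACAT2, LSS, MSMO1 and C1S were named after their values were seen. Alternatives varied the centring, scaling, orientation, weights, filters, block and cows. Arrays of days -14 and 14 from another print were not used here.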

Additional observations from a re-analysis of the deposited data

Results flagged for a closer look

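Among the named genes and list means, 8 had a cow far from the other 4 in its difference between day 28 and day 1. Chance flags about 1 in 20 groups of values. The search covered the 24 genes picked by p-value, the named list genes and the 30 list means, so several of the flags would arise by chance alone. CD209 differed by -1.22 in cow 7186, where the nearest other cow had -0.639. EBP differed by 1.63 in cow 6983, with the nearest at -0.0893, and CEBPA by -0.608 in cow 7188, with the nearest at 0.679. The mean of the urea cycle and amino acid list was 0.0398 in cow 7186, with the nearest at 0.350. The mean of the growth hormone, insulin and IGF list was -0.361 in cow 7188, with the nearest at 0.00633. In cow 6983 the hepatocyte-enriched list had a mean of 0.498, with the nearest at -0.124, and the erythroid list, which is BLVRB alone and so counts as both a gene and a list, had 1.055, with the nearest at -0.205.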

How the results depend on the processing

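All 24 genes picked by p-value kept their sign in every alternative in which they were tested, but they had been picked for differing 1 way in all 5 cows with small p-values, so this is no sign of stability; 12 of the 24 were tested once clones whose spots disagreed by over 1 log2 unit were set missing. Of 67 list genes named, 44 kept their sign in every alternative and none passed the adjusted threshold in any. Of the 30 list medians, 20 kept their sign under quantile normalization, 16 with liver in Cy5 alone and 25 with liver in Cy3 alone. These signs were taken against 0 and not against the median of all probes, which moved as well. The count of probes higher past the adjusted threshold was 0 in every alternative. That of probes lower was 1 with liver in Cy3 alone and 0 to 1 when each cow was left out, the 1 being found without cow 6934. The 427 probes at an unadjusted p under 0.05 became 654 with array weights, 868 with liver in Cy3 alone, 709 with rows that have no clone, since 9668 rows were then tested, and 283 with disagreeing spots missing, since 3122 probes were then left; leaving out each cow gave 289 to 627. The cause of the first and the second change was not tested. The split of higher to lower was 195 to 311 with liver in Cy5 alone, 244 to 39 with disagreeing spots missing and 142 to 150 without cow 6934. Without the cow as a block there were 322 such probes and 0 past the adjusted threshold. The smallest adjusted p in limma's moderated test was then 0.527, against 0.106 with the block. With only days 1 and 28 in the blocked fit there were 494 such probes and 0 past the threshold. Since each of these fits had 0 calls, the calls cannot show what the pairing changed. The median of all probes, 0.06, was -0.00102 under quantile normalization, 0.172 with liver in Cy3 alone and -0.00795 with liver in Cy5 alone. Without signal over background, dim and bright spots could not be told apart.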
